A study of Danio rerio with 24 samples.

Results

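Chaperones are proteins that help other proteins fold, keep them from clumping, or pass them on for transport or breakdown. The members described here are the 76 genes, of 8793 genes with a single symbol on the array, whose symbol marks them as heat shock proteins, J proteins, CCT ring subunits, endoplasmic reticulum lectins and isomerases, or their co-chaperones. The symbol rule matched 91 probe sets, of which 89 carried 1 symbol. The 2 probe sets with several symbols were left out, and each gene is represented by its brightest probe set. By role there were 28 J proteins, 13 endoplasmic reticulum lectins, isomerases, reticulocalbins and the collagen chaperone, 12 members of the HSP70 and HSP110 family, 8 CCT subunits, 5 co-chaperones, 4 HSP90 proteins, 3 small heat shock proteins and 2 mitochondrial HSP60 and HSP10 proteins. The remaining 1, tcp11l2, was matched through its letters alone. A total of 68 members reached an intensity of 100 in at least 1 group, and 8 stayed dimmer than that in every group (bag5, dnajc12, dnajc24, dnajc5gb, hspa1b, hspa8b, hspb6 and pdia2).

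HSP70 proteins bind exposed stretches of unfolded chains, J proteins deliver those chains and trigger the HSP70 ATPase, and exchange factors such as the HSP110 and BAG proteins reset the cycle. HSP90 acts late, on nearly folded clients such as kinases and receptors, small heat shock proteins hold unfolded proteins without folding them, and the CCT ring folds actin and tubulin. Inside the endoplasmic reticulum, hspa5 (BiP) and hsp90b1 (GRP94) act with the lectins calreticulin and calnexin and with protein disulfide isomerases on secreted and membrane proteins. Their genes are classical targets of the unfolded protein response, whereas the cytosolic heat-inducible genes are targets of heat shock factors.

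RNA was measured on Affymetrix zebrafish arrays in 8 groups of 3 arrays, each array from its own pool. The groups are yng retinas at 52 hpf (hours post fertilization), WT retinas at 52 hpf, yng retinas at 36 hpf, WT retinas at 36 hpf, yng whole embryos at 52 hpf, WT whole embryos at 52 hpf, yng whole embryos at 36 hpf and WT whole embryos at 36 hpf. The yng (young) fish carry a mutation of smarca4a (brg1), which encodes the motor subunit of SWI/SNF chromatin remodellers, and their age was set by that of their wild-type siblings. Where the labels give a strain, it is AB. A pool held 10 embryos or 10 retinas, except that yng retinas at 36 hpf were pooled as 20 retinas of 10 embryos, and 33 ng of RNA was amplified and labelled for each array.

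The probe set of smarca4a with the brighter signal was lower in yng in all 4 tissue and age classes, by log2 differences of -2.08 to -1.61, with adjusted p-values of 9.69e-12 or less. All 12 measured retina marker genes were higher in WT retinas than in WT embryos at both ages. The sum of 14 muscle marker genes was 573 to 1131 on retina arrays and 111597 to 118387 on embryo arrays. Lens marker genes differed between the retina groups: their sum over 6 genes was 595 to 3973 in yng retinas at 52 hpf and 211 to 266 in WT retinas at 52 hpf, against 555 to 2842 in yng retinas and 521 to 985 in WT retinas at 36 hpf. All yng arrays were washed on 1 fluidics station and all WT arrays on another, so the effects of genotype and of the station cannot be told apart. A wash error was recorded for yng retinas at 36 hpf, replicate 1. The replicate number is the hybridization day, except for WT embryos at 52 hpf, replicate 3, which was hybridized alone on a day of its own.

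Intensities below are quantile normalized over the 24 arrays. Differences are on the scale of log2(intensity + 16), which understates the change of dim genes, and are given with the standard error (SE) of a linear model fitted with limma to all 24 arrays. A member is called when its p-value, adjusted by Benjamini-Hochberg over all 15502 probe sets, is below 0.05. Arrays of intact pools cannot tell fewer cells of a type from less RNA per cell.

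In yng retinas at 52 hpf, hspa5, hsp90b1, canx and calr3a of the endoplasmic reticulum were lower. Those higher included rcn3, hsp70.3, the cytosolic J protein dnajb1b and the mitochondrial J proteins dnaja3b, dnajc11a and dnajc19. Of the 76 members 8 were higher and 6 lower, against 11.1% and 9.63% of all 8793 genes, so the members were called about as often as genes at large. On the intensities as deposited 6 were higher and 9 lower, and with median scaling 8 and 9. Within the set of 20 members counted here as working in the endoplasmic reticulum, 1 was higher and 4 were lower. The median difference was -0.10 over those 20, -0.01 over all members and 0.04 over all genes.

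The main HSP70 of the endoplasmic reticulum, hspa5, had intensities of 1221, 1217 and 1521 in yng retinas at 52 hpf, against 2157, 2192 and 2434 in WT retinas. All 3 yng arrays lay below all 3 WT arrays, and the log2 difference was -0.78 ± 0.16 (SE, adjusted p = 0.00109). Its partner hsp90b1, the HSP90 of the same compartment, had 1067, 766.4 and 1133 in yng retinas, against 1987, 1168 and 1723 in WT retinas (-0.69 ± 0.24, adjusted p = 0.0434). The groups did not overlap. The membrane-bound lectin calnexin, canx, averaged 4131 ± 236 in yng retinas and 5393 ± 253 in WT retinas (SD, n = 3 each), a difference of -0.38 ± 0.10. The calreticulin gene calr3a fell by the same amount, -0.38 ± 0.09, whereas calr itself was at 2540 ± 179 and 2263 ± 153 in yng and WT retinas and was not called (adjusted p = 0.635). Another member of the set, the disulfide isomerase pdia3, had 316.4, 302.0 and 403.2 in yng retinas, against 600.0, 437.2 and 905.3 in WT retinas. Its difference of -0.85 ± 0.32 missed the threshold (adjusted p = 0.0721) and passed it with the replicate number as a block (adjusted p = 0.000111). Paired by replicate number, the uncalled pdia6, calr3b, dnajc3a and dnajc10 were also lower in all 3 pairs. The uncalled pdia4, pdia5 and pdia7 were higher in all 3.

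One member of the endoplasmic reticulum set was called higher. Reticulocalbin 3, rcn3, is a calcium-binding protein of the secretory pathway, and it had the largest genotype difference of any member in any of the 4 classes. Its intensities were 562.0, 375.2 and 404.5 in yng retinas at 52 hpf, against 103.4, 55.92 and 47.63 in WT retinas. The lowest yng array was above 3 times the highest WT array, and the difference was 2.48 ± 0.27 (adjusted p = 5.99e-07). At 36 hpf the retinas gave 360.2, 298.4 and 282.4 in yng, against 76.38, 58.76 and 70.41 in WT (1.96 ± 0.27, adjusted p = 3.78e-05). In whole embryos rcn3 averaged 546.7 ± 165 in yng and 555.9 ± 36.0 in WT at 52 hpf, and 527.4 ± 195 in yng and 542.5 ± 182 in WT at 36 hpf (SD, n = 3 each), with overlapping arrays. The mean in yng retinas thus lay closer to that of whole embryos than to that of WT retinas, and the genotype difference in retinas exceeded that in embryos. At 52 hpf the excess was 2.55 ± 0.38 (adjusted p = 0.000152), and the excess at 36 hpf was 2.01 ± 0.38 (adjusted p = 0.00361). The related rcn1 was not called in any genotype comparison. The skin and skeleton markers summed to 977 to 1086 in yng retinas and 1039 to 1191 in WT retinas at 52 hpf, and to 1755 to 1877 and 1684 to 1774 at 36 hpf. The parts of the lens marker difference and of other embryo tissue in the rcn3 result were not tested.

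Among members outside the endoplasmic reticulum set the stress-inducible HSP70 gene hsp70.3 had 165.3, 177.2 and 132.7 in yng retinas at 52 hpf, against 62.89, 59.67 and 69.13 in WT retinas (1.12 ± 0.22, adjusted p = 0.000697). Its probe set is of a kind that can also bind transcripts of near-identical HSP70 genes, so the value may be a mixture. The heat-inducible J protein dnajb1b, the HSP40 partner of such HSP70s, had 1170, 1145 and 1082 in yng retinas, against 710.2, 571.3 and 611.1 in WT retinas (0.83 ± 0.17, adjusted p = 0.00103). Both genes were higher on every yng array than on any WT array. Smaller rises were called for the mitochondrial J proteins dnaja3b (0.43 ± 0.11), dnajc11a (0.39 ± 0.09) and dnajc19 (0.36 ± 0.13), the HSP70 exchange factor hspbp1 (0.45 ± 0.15) and the dim hspa8b (0.75 ± 0.23), whose arrays overlapped. The J protein dnajc18, which was not counted in the endoplasmic reticulum set, fell, with 504.6, 426.4 and 472.5 in yng retinas, against 754.8, 684.2 and 632.6 in WT retinas (-0.55 ± 0.09, adjusted p = 0.000137). The call of hsp90aa1.1, an HSP90 of skeletal muscle in zebrafish, rests on dim signals of 60.24 ± 8.79 in yng retinas and 86.27 ± 3.06 in WT retinas (SD, n = 3 each).

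**Figure D1:**
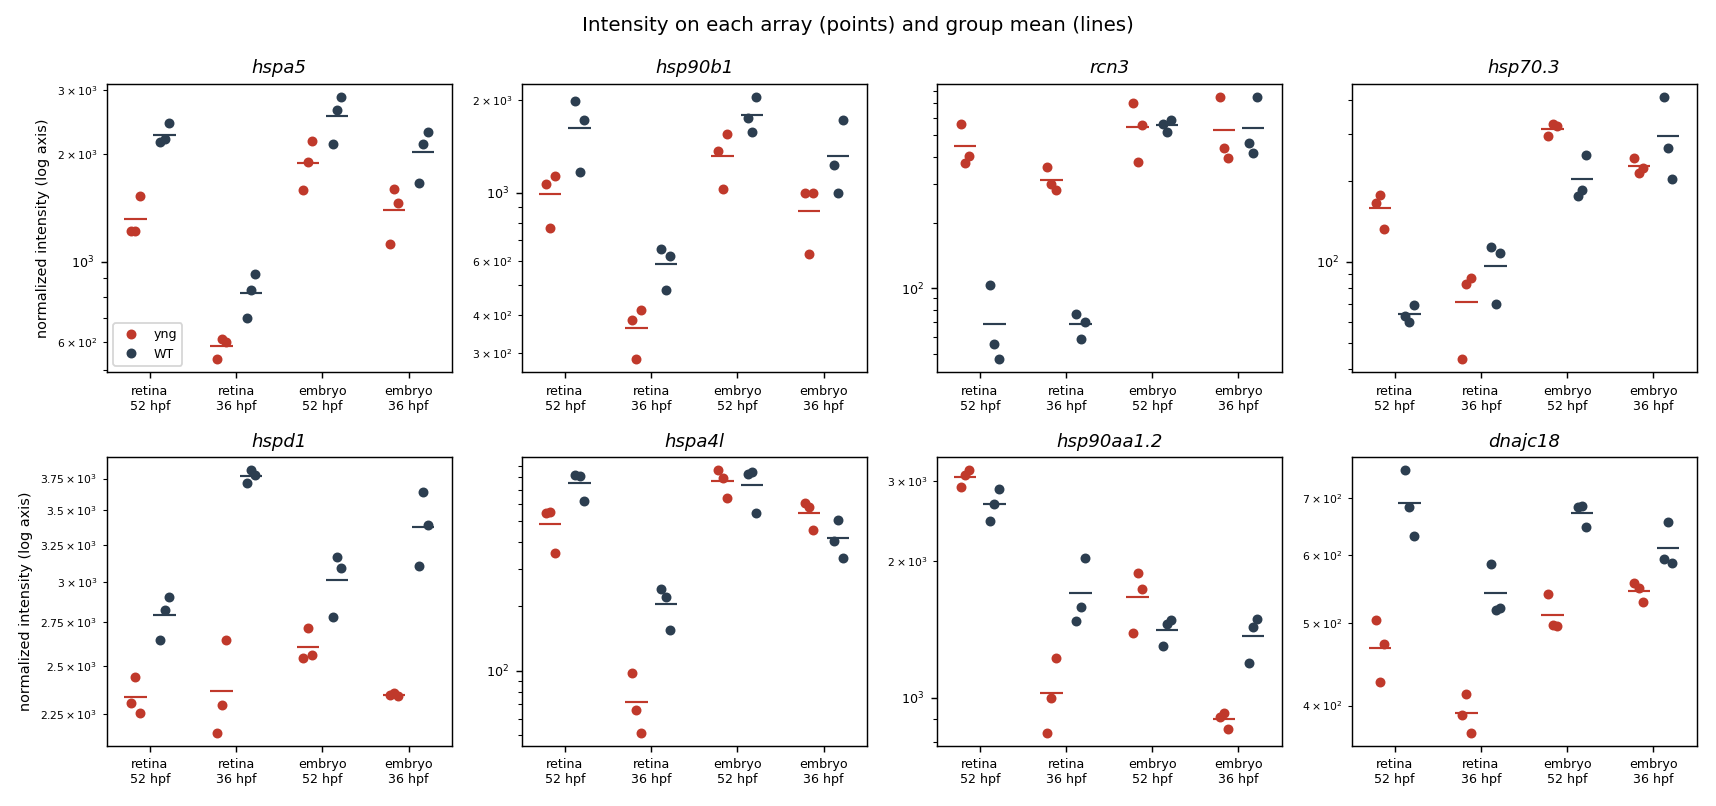
Normalized intensity (log axis) of 8 members on each of the 24 arrays, by tissue and age, with yng (red) left of WT (dark) and lines at the group means. The 3 yng points of hspa5 lie below the WT points in 3 of the 4 classes, and rcn3 separates the genotypes in retinas (375.2 to 562.0 in yng against 47.63 to 103.4 in WT at 52 hpf) but not in embryos.

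With the replicate number as a block, 9 members were higher and 14 lower in yng retinas at 52 hpf. The shares of all genes given above and below are from the fit without the block. No share of all genes is given with it, so the block counts have no such share beside them. Of the 14 calls 8 held when each of the 6 arrays was left out in turn, among them hspa5, canx, rcn3, hsp70.3, dnajb1b and dnajc18. The call of hsp90b1 was lost without yng replicate 1 or 2 or WT replicate 1 or 3 (adjusted p up to 0.204), that of calr3a without yng replicate 2 (0.052), and those of hspbp1, hspa8b and hsp90aa1.1 in 4 or 5 of the 6 fits (up to 0.164). The call of dnajc19 was lost in all 6 (up to 0.176), and without yng replicate 2 a total of 9 members were called. The log2 ratio of the 3' to the 5' probe set of gapdh, a measure of RNA integrity, averaged 3.058 in yng retinas and 2.676 in WT retinas, and its part in these results was not tested.

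At 36 hpf the members called lower in yng retinas included cytosolic hsp90aa1.2, the HSP110 proteins hspa4l and hspa4a and mitochondrial hspd1, while rcn3, dnajc18 and hsp90aa1.1 were called as at 52 hpf. Of the members 3 were higher and 10 lower, against 4.41% and 5.09% of all genes. None of the 10 that fell was counted in the endoplasmic reticulum set. The 10 include the J protein dnajc18, which was left out of that set, so this split depends on how the set was drawn. Within the set 2 members were higher and none lower by this test, although 4 were lower with the hybridization day as a block. Over all 76 members the block gave 6 higher and 18 lower, without a share of all genes for that fit. The median difference was -0.13 over all members and 0.00 over all genes.

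Mitochondrial HSP60, hspd1, had 2163, 2296 and 2641 in yng retinas at 36 hpf, against 3717, 3816 and 3778 in WT retinas. The highest yng array was well below the lowest WT array (-0.67 ± 0.09, adjusted p = 3.04e-05). Its ring cap HSP10, hspe1, averaged 4876 ± 393 in yng retinas and 6116 ± 361 in WT retinas (SD, n = 3 each; -0.33 ± 0.09, adjusted p = 0.0223). The HSP110-type exchange factor hspa4l had 97.98, 65.47 and 51.53 in yng retinas, against 240.2, 221.7 and 155.3 in WT retinas (-1.35 ± 0.23, adjusted p = 0.000365). Its relative hspa4a was lower too, at 1105 ± 215 in yng retinas and 1693 ± 171 in WT retinas (-0.62 ± 0.15). Cytosolic hsp90aa1.2 had 838.7, 1002 and 1227 in yng retinas, against 1476, 1589 and 2034 in WT retinas (-0.73 ± 0.14, adjusted p = 0.0017). The second probe set of hsp90aa1.2 gave -1.03 ± 0.34 and missed the threshold (adjusted p = 0.0659). The ribosome-associated HSP70 hspa14 fell (-0.35 ± 0.09), as did dnajc18 (-0.45 ± 0.09) and the BAG co-chaperone bag4 (-0.41 ± 0.13). The falls of hspb1 (-0.78 ± 0.16) and hsp90aa1.1 (-0.52 ± 0.13) are between dim signals, at 15.69 ± 4.12 and 65.13 ± 3.07 in yng retinas, against 39.31 ± 13.8 and 101.0 ± 12.5 in WT retinas.

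Both endoplasmic reticulum partners, hspa5 and hsp90b1, which were called lower at 52 hpf, were below WT on every array at 36 hpf without passing the test. The intensities of hspa5 were 537.0, 608.5 and 599.0 in yng retinas, against 696.3, 835.8 and 923.5 in WT retinas (-0.47 ± 0.16, adjusted p = 0.0688, and 0.000847 with the block). Those of hsp90b1 were 386.2, 287.8 and 416.2 in yng retinas, against 656.9, 482.8 and 622.6 in WT retinas (-0.67 ± 0.24, adjusted p = 0.0856, and 0.000178 with the block). Neither gene's groups overlapped. Higher members were rcn3, the dim J protein dnajc12 (0.74 ± 0.17) and calr. The calr value of 0.69 ± 0.19 (adjusted p = 0.0218) comes from 939.8, 972.9 and 975.0 in yng retinas, against 397.4, 821.0 and 625.0 in WT retinas. A dimmer probe set of calr gave -0.11 ± 0.31, so the probe sets of calr did not point the same way.

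Calls for hspd1, hspa4l, hsp90aa1.2, hspb1, dnajc18, dnajc12 and rcn3 held without each of the 6 arrays. Without yng replicate 1, the array with the recorded wash error, 8 members were called, and hspa4a (adjusted p = 0.0777), hspa14 (0.12), hspe1 (0.0869), bag4 (0.201) and calr (0.0525) missed the threshold. WT replicate 1 (hspa14, hspe1, calr), WT replicate 2 (bag4, hsp90aa1.1), WT replicate 3 (bag4), yng replicate 2 (calr) and yng replicate 3 (hspe1, bag4, calr) also decided single calls, with adjusted p-values up to 0.161. Fitted to these 2 groups alone, 3 members were called (hspd1, hspa4l and rcn3). Blood marker genes were lower in yng retinas at 36 hpf (4 of 10, sums of 2887 to 6010 in yng and 5146 to 7741 in WT), and their part in these results was not tested.

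Whole embryos at 36 hpf showed falls in HSP60, HSP90, HSP70 and J proteins, and no member was higher. Of the 76 members 0 were higher and 10 lower, against 3.03% and 3.65% of all genes. The block gave 3 higher and 18 lower, without a share of all genes for that fit. The median was -0.12 over all members, -0.19 over the 20 endoplasmic reticulum members and 0.00 over all genes. The intensities of hspd1 were 2346, 2358 and 2342 in yng embryos, against 3103, 3642 and 3394 in WT embryos (-0.52 ± 0.09, adjusted p = 0.000952). The yng arrays were nearly identical to each other and far below the WT arrays. The cytosolic J protein dnaja1 had 200.9, 145.6 and 187.8 in yng embryos, against 271.0, 284.1 and 263.4 in WT embryos (-0.58 ± 0.10, adjusted p = 0.00111). Another J protein, dnajb6b, had 151.3, 169.1 and 167.8 in yng embryos, against 280.6, 245.0 and 290.1 in WT embryos (-0.69 ± 0.15, adjusted p = 0.00669). The small heat shock protein hspb6 was dim, at 37.02 ± 1.67 in yng embryos and 82.1 ± 13.8 in WT embryos (SD, n = 3 each; -0.88 ± 0.16, adjusted p = 0.00134). These 4 calls held without each of the 6 arrays.

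The other 6 calls in embryos at 36 hpf were less firm. They were hsp90aa1.2 (-0.60 ± 0.14), hspa4a (-0.54 ± 0.15), hspa5 (-0.54 ± 0.16), dnajc3a, a J protein of the endoplasmic reticulum (-0.49 ± 0.12), mitochondrial HSP70 hspa9 (-0.44 ± 0.13) and hspa14 (-0.40 ± 0.09). In each of the 6 the yng arrays lay below the WT arrays without overlap. The calls come from these same arrays, so this is no separate support. Leaving out 1 array raised the adjusted p to at most 0.0644 for hspa14, 0.066 for hsp90aa1.2, 0.09 for dnajc3a, 0.142 for hspa4a, 0.205 for hspa9 and 0.23 for hspa5. Each of the 6 arrays decided at least 1 of these calls, and 5 members were called without WT replicate 2 or without WT replicate 3. Fitted to the 2 groups alone, 4 members were called.

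Embryos at 52 hpf showed the fewest genotype differences, among members as over all genes. Of the members 3 were higher and 2 lower, against 2.91% and 3.26% of all genes, so members were called about as often as genes at large. The block gave 6 higher and 7 lower, without a share of all genes for that fit. Those 7 included hspa5 (adjusted p = 0.134, and 0.00267 with the block), hsp90b1 (0.355, and 0.0069 with the block) and pdia6 (0.402, and 0.00118 with the block). On the intensities as deposited, and likewise with median scaling, 1 was higher and 2 lower. Those called higher were the disulfide isomerase pdia4, with 1248, 1114 and 1381 in yng embryos, against 754.4, 585.7 and 850.0 in WT embryos (0.77 ± 0.22, adjusted p = 0.0381), calr (0.66 ± 0.19) and hspbp1 (0.57 ± 0.15). The dimmer calr probe set gave 0.08 ± 0.31. Those called lower were hspb6 (-0.63 ± 0.16) and dnajc18, with 541.3, 497.5 and 495.6 in yng embryos, against 683.1, 685.0 and 648.8 in WT embryos (-0.38 ± 0.09, adjusted p = 0.012). None of the 5 calls held without each of the 6 arrays, with adjusted p-values of up to 0.19, and 1 to 3 members were called when 1 array was left out. Every array decided at least 1 call, and yng replicates 1 and 3 left 1 call each.

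**Figure D2:**
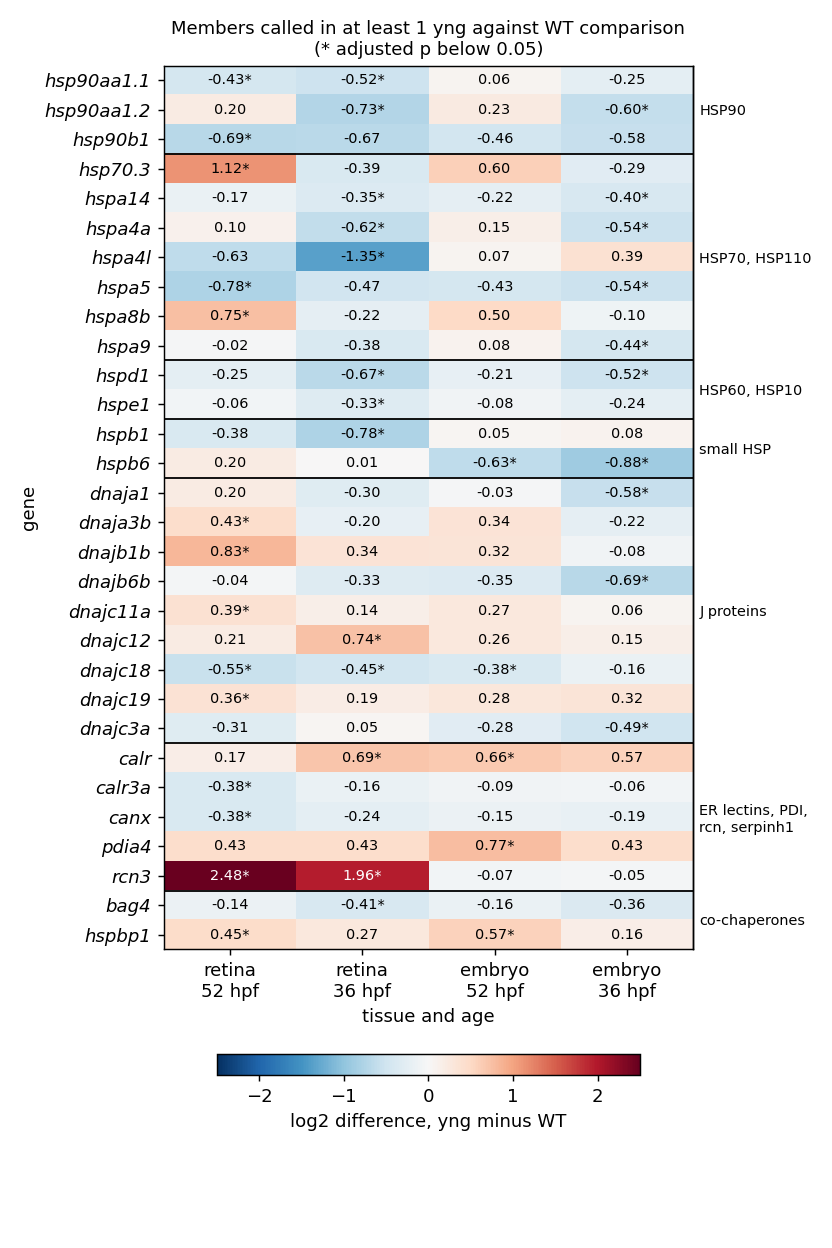
Log2 difference, yng minus WT, of the 30 members called in at least 1 of the 4 genotype comparisons, grouped by role, with an asterisk where the adjusted p was below 0.05. The row of rcn3 is the strongest (2.48 and 1.96 in retinas, -0.07 and -0.05 in embryos), and hspa5 and hsp90b1 are negative in all 4 columns.

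Set side by side, the 4 comparisons gave hspa5 differences of -0.78, -0.47, -0.43 and -0.54 for retinas at 52 and 36 hpf and embryos at 52 and 36 hpf. Those of hsp90b1 were -0.69, -0.67, -0.46 and -0.58. Paired by hybridization number, yng was below WT for hspa5 in 12 of 12 pairs, by between -0.84 and -0.37, and for hsp90b1 in 12 of 12 pairs, by between -0.89 and -0.30. Across all members 8 were lower in all 12 pairs (canx, cct8, dnajc18, hsp90b1, hspa14, hspa5, hspd1 and pdia3), which is 10.5% of members, against 5.53% of all genes. In the upward direction 1 member, dnajc11a, was higher in all 12, against 5.63% of all genes. These members were named after their pair directions were seen, and 1 of the 12 pairs spans separate hybridization days.

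Several well-known members were not called in any genotype comparison. The constitutive HSP70 hspa8 lay between 10350 and 12751 on all 24 arrays and the constitutive HSP90 hsp90ab1 between 8712 and 10350. A dimmer probe set of hsp90ab1 was higher in yng retinas at 36 hpf, by 0.45 ± 0.12 (adjusted p = 0.0181). None of the 8 CCT subunits was called in any of the 4 comparisons, and the largest difference among them was -0.35 ± 0.13 for cct8, in retinas at 52 hpf (adjusted p = 0.0619, and 0.0191 with the block) and in embryos at 52 hpf (0.135, and 0.0399 with the block). The collagen chaperone serpinh1b, the small heat shock protein hspb8, hsc70, calr3b and dnajb1a were not called either.

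The effect of genotype changed with age for 3 members in retinas. The test of that change called 3 members higher and 0 lower, against 1.39% and 2.68% of all genes. With the block it called 9 higher and 0 lower, without a share of all genes for that fit. For hsp70.3 the intensity in yng retinas was 158.4 ± 23.1 at 52 hpf and 71.09 ± 23.9 at 36 hpf, whereas in WT retinas it was 63.9 ± 4.81 at 52 hpf and 96.93 ± 23.9 at 36 hpf (SD, n = 3 each). The difference between those changes was 1.51 ± 0.31 (adjusted p = 0.0048). Cytosolic hsp90aa1.2 stood at 3059 ± 135 in yng retinas at 52 hpf and 1023 ± 195 at 36 hpf, against 2672 ± 213 and 1700 ± 295 in WT retinas, a difference of changes of 0.92 ± 0.20 (adjusted p = 0.00793). The yng retinas thus started below WT at 36 hpf and were no longer below it at 52 hpf. The mitochondrial J protein dnaja3b gave 0.63 ± 0.16 (adjusted p = 0.024), a call that was lost without yng retina 36 hpf replicate 2, WT retina 36 hpf replicate 2, WT retina 52 hpf replicate 1 or yng retina 52 hpf replicates 2 or 3 (adjusted p up to 0.0782). Genotype by age was not tested in embryos, so these changes are not shown to be particular to retinas. From 36 to 52 hpf hsp70.3 changed by 0.44 ± 0.22 in yng embryos and -0.45 ± 0.22 in WT embryos. The values were 0.88 ± 0.14 and 0.04 ± 0.14 for hsp90aa1.2, and 0.44 ± 0.11 and -0.12 ± 0.11 for dnaja3b.

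Between tissues, the effect of genotype differed for rcn3 at both ages, as given above, and for 2 more members. At 52 hpf the test called 2 members higher and 0 lower (rcn3 and hspb6), against 2.9% and 4.12% of all genes. At 36 hpf it called 2 higher and 1 lower (rcn3, hspb6 and hspa4l), against 0.887% and 1.74% of all genes. The block gave 3 and 1 at 52 hpf and 3 and 2 at 36 hpf, without a share of all genes for that fit. The genotype difference of hspa4l at 36 hpf was -1.35 in retinas and 0.39 in embryos, where yng averaged 546.0 ± 81.0 and WT 415.3 ± 85.4 (SD, n = 3 each). The difference of -1.74 ± 0.32 was nearly equal on the 3 hybridization days, at -1.73, -1.73 and -1.76. For hspb6 the values were 0.83 ± 0.22 at 52 hpf and 0.89 ± 0.22 at 36 hpf, both between dim signals. Its call was lost without 6 of the 12 arrays at 52 hpf (adjusted p up to 0.081) and without 9 of the 12 at 36 hpf (up to 0.113).

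At 52 hpf, against 36 hpf, several endoplasmic reticulum chaperones were higher in retinas of both genotypes. In yng retinas 16 members rose and 8 fell, against 12.0% and 15.8% of all genes, and in WT retinas 15 rose and 15 fell, against 15.4% and 24.6%. Of the 20 endoplasmic reticulum members 8 rose and 2 fell in yng retinas, and 8 rose and 2 fell in WT retinas. Their median was 0.08 in yng and 0.17 in WT, while the median over all genes was -0.07 in yng and -0.11 in WT. The comparisons by age, tissue and genotype share arrays. The ages were washed in different modules of a station, so module and age cannot be told apart. The log2 gapdh ratio averaged 3.058 at 52 hpf and 2.887 at 36 hpf in yng retinas, and 2.676 and 3.095 in WT retinas. Its part in the changes with age, and in the test of genotype by age, was not tested.

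Calreticulin, calr, had 2350, 2566 and 2705 in yng retinas at 52 hpf, against 939.8, 972.9 and 975.0 at 36 hpf, a rise of 1.38 ± 0.19 (adjusted p = 7.66e-06). In WT retinas the same gene had 2437, 2147 and 2207 at 52 hpf, against 397.4, 821.0 and 625.0 at 36 hpf, a rise of 1.91 ± 0.19 (adjusted p = 6.34e-08). The dimmer calr probe set rose too, by 1.22 ± 0.31 in yng and 1.39 ± 0.31 in WT. The rises of hspa5 were 1.15 ± 0.16 in yng and 1.46 ± 0.16 in WT, those of hsp90b1 1.40 ± 0.24 and 1.42 ± 0.24, and those of dnajc3a 0.86 ± 0.12 and 1.23 ± 0.12. The J protein dnajb11, a BiP co-chaperone, rose by 0.77 ± 0.10 in yng and 0.71 ± 0.10 in WT, calr3a by 0.68 ± 0.09 and 0.90 ± 0.09, and canx by 0.42 ± 0.10 and 0.57 ± 0.10. The rise of pdia4 (0.62 ± 0.22 in yng, 0.61 ± 0.22 in WT) was called but was lost without any of the 6 arrays in yng (adjusted p up to 0.116) and without WT 36 hpf replicates 1 or 2 or WT 52 hpf replicates 1 or 3 (up to 0.167). For none of the 20 was a difference between the genotypes in this change called. With the block, 10 rose and 3 fell in WT retinas, without a share of all genes for that fit.

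The members of the set that fell were serpinh1b, which helps collagen fold, and dnajc10, a J protein with disulfide reductase activity. The collagen chaperone changed by -0.76 ± 0.22 in yng retinas and -0.92 ± 0.22 in WT retinas, and dnajc10 by -0.48 ± 0.17 and -0.50 ± 0.17. The yng call of serpinh1b was lost without 36 hpf replicate 1 or 52 hpf replicates 1 or 3 (adjusted p up to 0.0893). The dnajc10 calls were lost without 36 hpf replicates 1 or 3 or 52 hpf replicates 1 or 2 in yng (up to 0.213), and without 36 hpf replicates 2 or 3 or 52 hpf replicate 2 in WT (up to 0.174).

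**Figure D3:**
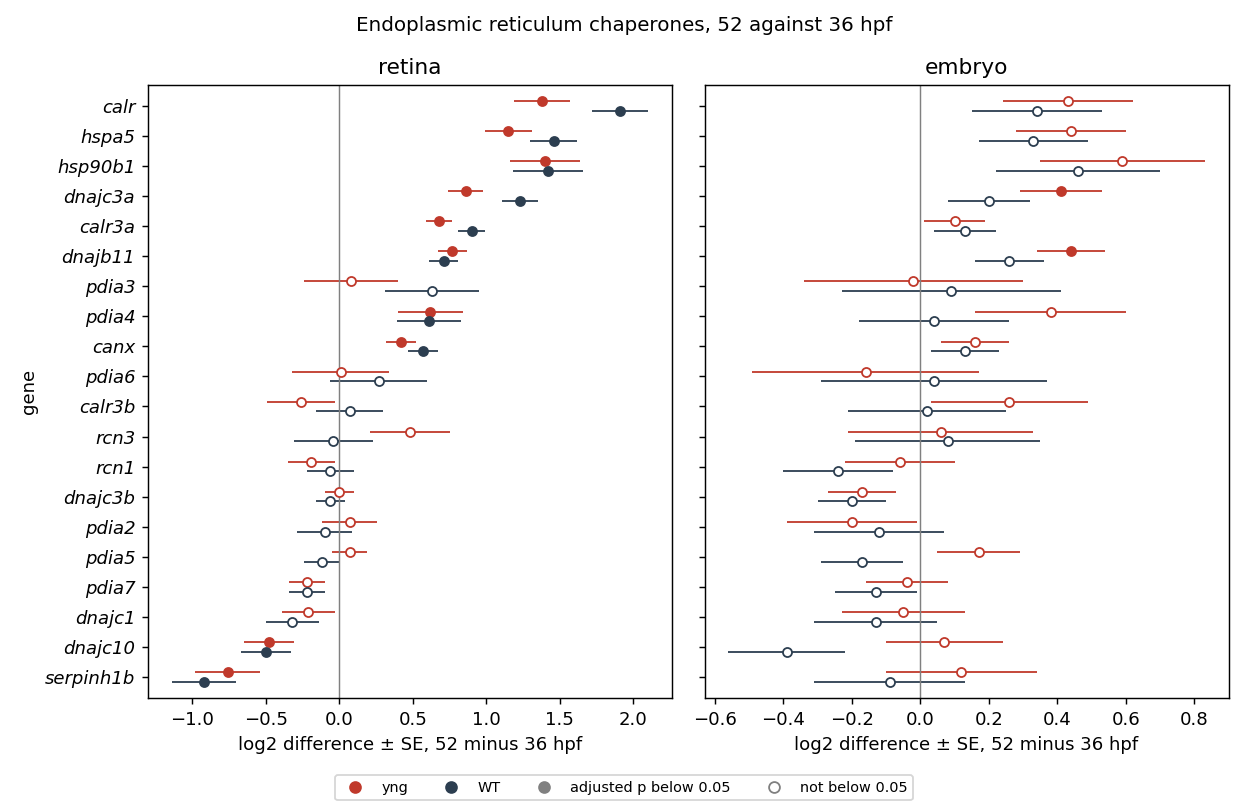
Log2 difference ± SE, 52 minus 36 hpf, of the 20 endoplasmic reticulum members in retinas (left) and whole embryos (right), with yng in red, WT in dark and filled points where the adjusted p was below 0.05. In retinas calr (1.38 in yng, 1.91 in WT), hspa5 and hsp90b1 lead in both genotypes, and in embryos no WT point is filled.

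Outside the endoplasmic reticulum the retina showed rises in a few members and falls in others. The HSP110 protein hspa4l rose by 2.52 ± 0.23 in yng retinas and 1.80 ± 0.23 in WT retinas, hsp90aa1.2 by 1.58 ± 0.14 and 0.66 ± 0.14, and dnaja2b by 0.50 ± 0.10 and 0.42 ± 0.10. The gene tcp11l2, which is no chaperone but shares the letters, rose by 1.60 ± 0.25 and 2.08 ± 0.25. The histone chaperone dnajc9 had 949.8, 1019 and 1006 in yng retinas at 52 hpf, against 1388, 2155 and 1826 at 36 hpf (-0.82 ± 0.21), and changed by -1.09 ± 0.21 in WT retinas. The ribosome-associated hspa14 fell in both, by -0.62 ± 0.09 in yng and -0.79 ± 0.09 in WT, as did dnajc11a, by -0.50 ± 0.09 and -0.75 ± 0.09. The mitochondrial pair hspd1 and hspe1 fell in WT retinas (-0.43 ± 0.09 and -0.39 ± 0.09), while the yng values of -0.01 ± 0.09 and -0.13 ± 0.09 were not called. The difference between the genotypes in this change was 0.42 ± 0.13 for hspd1 (adjusted p = 0.0727, and 0.00867 with the block) and 0.26 ± 0.13 for hspe1 (0.368, and 0.072 with the block). The CCT subunits were called in neither genotype, with medians of 0.04 in yng and -0.03 in WT.

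Fewer members were called with age in whole embryos than in retinas, as was the case for genes at large. In yng embryos 8 members rose and 2 fell, against 5.03% and 4.64% of all genes. In WT embryos 4 rose and 4 fell, against 7.31% and 8.61%. The block gave 17 and 2 in yng embryos and 7 and 8 in WT embryos, without a share of all genes for that fit. The small heat shock protein hspb1 had 727.9, 674.0 and 795.2 in yng embryos at 52 hpf, against 1499, 1425 and 1718 at 36 hpf, a change of -1.06 ± 0.16 (adjusted p = 0.000223). In WT embryos it had 657.9, 684.2 and 781.3 at 52 hpf, against 1526, 1512 and 1336 at 36 hpf, a change of -1.03 ± 0.16 (adjusted p = 0.000168). The level of hspb1 was thus lower at 52 hpf on every array of either genotype. Other calls that held without each array were hsp90aa1.2 (0.88 ± 0.14) and dnajb11 (0.44 ± 0.10) in yng embryos, hspa14 (-0.39 ± 0.09) and dnajc11a (-0.38 ± 0.09) in WT embryos, and dnajb6a (0.43 ± 0.09 in yng, 0.51 ± 0.09 in WT). The dnajb6a call was lost when its probe sets were averaged (adjusted p = 0.251 in yng and 0.123 in WT). Of the endoplasmic reticulum set, dnajb11 and dnajc3a rose in yng embryos, and the dnajc3a call was lost without any of the 6 arrays (adjusted p up to 0.149). With the block hspa5 (0.44 ± 0.16, adjusted p = 0.00174), hsp90b1 (0.59 ± 0.24, 0.000711) and canx (0.16 ± 0.10, 0.0474) were called in yng embryos as well. No member of the set was called in WT embryos without the block. With it 3 rose and 1 fell, and no share of all genes is given for that fit.

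The small heat shock proteins hspb1 and hspb8, muscle HSP90 and the collagen chaperone were far lower in retinas than in whole embryos. Over the WT arrays 30 members were higher and 13 lower in retinas at 52 hpf, against 48.3% and 22.9% of all genes, and 29 were higher and 21 lower at 36 hpf, against 50.2% and 24.6%. The median over all genes was itself 0.33 at 52 hpf and 0.35 at 36 hpf after quantile normalization, so small positive differences carry no direction of their own. As deposited, array medians were 145.3 to 165.3 in retinas and 223.3 to 240.7 in embryos. On the intensities as deposited the split was 10 higher and 19 lower at 52 hpf and 7 higher and 28 lower at 36 hpf, and with median scaling it was 40 and 11, and 41 and 20. Module and tissue cannot be told apart.

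Muscle HSP90, hsp90aa1.1, had 85.48, 83.67 and 89.65 in WT retinas at 52 hpf, against 1871, 1548 and 1985 in WT embryos (-4.14 ± 0.13, adjusted p = 1.04e-16). The small heat shock protein hspb1 had 26.55, 31.94 and 34.75 in WT retinas, against 657.9, 684.2 and 781.3 in WT embryos (-3.94 ± 0.16). Its relative hspb8 had 16.35, 17.97 and 19.8 in WT retinas, against 607.6, 917.8 and 675.8 in WT embryos (-4.44 ± 0.23). These 3 genes and the collagen chaperone serpinh1b, at 256.6 ± 29.0 in WT retinas and 4374 ± 205 in WT embryos (SD, n = 3 each; -4.01 ± 0.22), were lower on every retina array. At 36 hpf the differences were -4.25 ± 0.13, -4.76 ± 0.16, -4.30 ± 0.23 and -3.19 ± 0.22 for hsp90aa1.1, hspb1, hspb8 and serpinh1b. The hsc70 gene was lower by -5.90 ± 0.25 at 52 hpf and -4.76 ± 0.25 at 36 hpf on its brightest probe set, while its second probe set gave 0.65 ± 0.15 and 0.69 ± 0.15. What each hsc70 probe set binds was not tested, so the gene has no single direction here. Further members lower in retinas were rcn3 (-2.80 ± 0.27 at 52 hpf, -2.68 ± 0.27 at 36 hpf) and hsp70.3 (-1.44 ± 0.22 and -1.42 ± 0.22).

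More of the endoplasmic reticulum set was called between tissues at 36 hpf than at 52 hpf. In WT retinas 4 of the 20 were higher and 5 lower at 52 hpf (median -0.04), and 2 were higher and 10 lower at 36 hpf (median -0.51). Of all genes 48.3% were higher and 22.9% lower at 52 hpf, and 50.2% and 24.6% at 36 hpf. The share of the set called lower at 52 hpf was thus near that of genes at large. The median over all genes was 0.33 at 52 hpf and 0.35 at 36 hpf, so both set medians lie below that of genes at large. Whether the tissue difference changed with age was not tested. At 36 hpf hspa5 had 696.3, 835.8 and 923.5 in WT retinas, against 1656, 2129 and 2293 in WT embryos (-1.29 ± 0.16, adjusted p = 5.27e-07). At 52 hpf the same gene had 2157, 2192 and 2434 in WT retinas, against 2134, 2643 and 2880 in WT embryos (-0.16 ± 0.16, adjusted p = 0.359). The retina level was lower than that of embryos at 36 hpf and overlapped with it at 52 hpf. The values were similar for calr (-1.32 ± 0.19 at 36 hpf, 0.25 ± 0.19 at 52 hpf, and -0.28 ± 0.31 and 0.56 ± 0.31 on its dimmer probe set) and for hsp90b1 (-1.12 ± 0.24 and -0.16 ± 0.24).

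Members higher in retinas included the J proteins dnajc17 (1.13 ± 0.21 at 52 hpf, 1.29 ± 0.21 at 36 hpf), dnajc21 (0.97 ± 0.18 and 1.03 ± 0.18), dnaja1 (0.90 ± 0.10 and 1.21 ± 0.10), dnajc19 (0.76 ± 0.13 and 1.15 ± 0.13) and dnajc9 (0.70 ± 0.21 and 1.28 ± 0.21). Of the 28 J proteins 14 were higher and 4 lower at 52 hpf, against 48.3% and 22.9% of all genes, so the share called higher was near that of genes at large. The CCT ring was called higher in 7 of its 8 subunits at each age, by 0.27 to 0.47, which is close to the median over all genes of 0.33 to 0.35 and carries no direction. On the intensities as deposited 3 CCT subunits were called at 52 hpf (cct2, cct6a and tcp1) and none at 36 hpf.

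**Figure D4:**
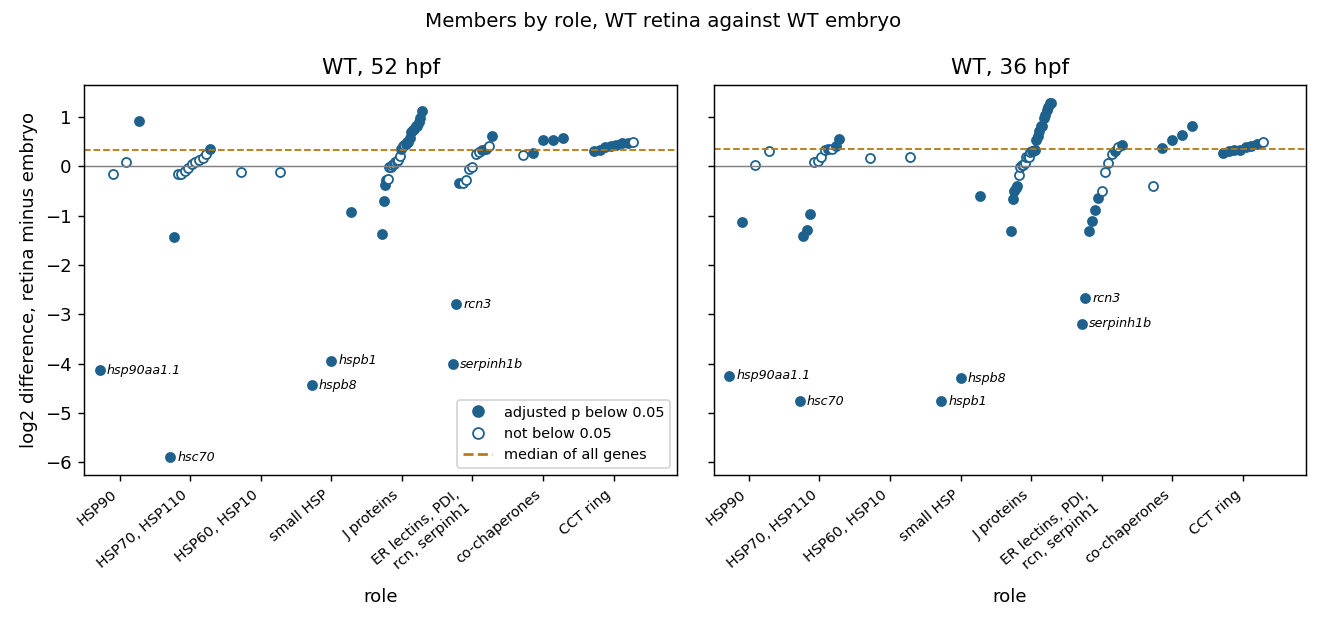
Log2 difference, WT retina minus WT embryo, of the members by role at 52 hpf (left) and 36 hpf (right), filled where the adjusted p was below 0.05, with the median of all genes as a dashed line (0.33 and 0.35). The 8 CCT points lie close to the dashed line, and hsc70, hspb1, hspb8, hsp90aa1.1, serpinh1b and rcn3 lie far below it.

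Genes that regulate or assist the chaperones were followed with a list of heat shock factors and cytosolic or mitochondrial co-chaperones, of which 32 of 40 were measured. For yng against WT, 2 were higher and 3 lower in retinas at 52 hpf, 0 and 2 in retinas at 36 hpf, 2 and 5 in embryos at 52 hpf, and 1 and 4 in embryos at 36 hpf. In the same order the shares of all genes were 11.1% and 9.63%, 4.41% and 5.09%, 2.91% and 3.26%, and 3.03% and 3.65%. The co-chaperone fkbp5, which tunes steroid receptors on HSP90, fell by -2.65 ± 0.21 in yng embryos at 36 hpf (adjusted p = 3.82e-08), by -1.99 ± 0.21 in yng embryos at 52 hpf and by -0.76 ± 0.21 in yng retinas at 52 hpf, and gave -0.30 ± 0.21 in yng retinas at 36 hpf. At 52 hpf fkbp4 was higher in yng retinas (0.58 ± 0.12) and embryos (0.49 ± 0.12), and tomm34 in yng retinas (0.50 ± 0.14). In contrast, cdc37 was lower at 52 hpf, by -0.75 ± 0.19 in yng retinas and -0.68 ± 0.19 in yng embryos. Fits without each array are not given for fkbp4, tomm34 and cdc37. Mitochondrial HSP90, trap1, fell by -1.03 ± 0.17 and -0.92 ± 0.17 in yng embryos at 36 and 52 hpf and by -0.80 ± 0.17 in yng retinas at 36 hpf. The mitochondrial protease subunit clpp was lower in embryos (-0.60 ± 0.11 at 36 hpf, -0.39 ± 0.11 at 52 hpf). The heat shock factor gene hsf1 was higher in yng embryos (0.63 ± 0.15 at 36 hpf, 0.61 ± 0.15 at 52 hpf). In yng retinas hsf1 missed the threshold, at 0.40 ± 0.15 at 52 hpf (adjusted p = 0.0647, and 0.0126 with the block). At 36 hpf the retina value was 0.39 ± 0.15 (0.119, and 0.0255 with the block). The binding protein of this factor, hsbp1b, was lower in yng retinas (-0.72 ± 0.10) and embryos (-0.45 ± 0.10) at 52 hpf. Lost without 1 array were fkbp5 in retinas at 52 hpf (without WT replicate 3 or yng replicate 2, adjusted p up to 0.0903), clpp in embryos at 52 hpf (without any array but yng replicate 3, up to 0.161) and hsf1 in embryos at 52 hpf (without WT replicates 1 or 3 or yng replicates 2 or 3, up to 0.0957) and at 36 hpf (without WT replicates 1 or 2 or yng replicates 2 or 3, up to 0.0717).

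A list of the unfolded protein response and of other endoplasmic reticulum folding genes had 43 of 61 genes measured. For yng against WT, 1 was higher and 6 lower in retinas at 52 hpf, 0 and 3 in retinas at 36 hpf, 0 and 2 in embryos at 52 hpf, and 0 and 2 in embryos at 36 hpf. The shares of all genes called lower were 9.63%, 5.09%, 3.26% and 3.65% in that order, and those called higher were 11.1%, 4.41%, 2.91% and 3.03%. The cargo receptor lman1, which carries glycoproteins out of the endoplasmic reticulum, was lower in all 4, by -0.53 ± 0.14, -0.69 ± 0.14, -0.60 ± 0.14 and -0.74 ± 0.14. The secreted stress factor manf was lower in all 4 on its brightest probe set, by -0.52 ± 0.12, -0.55 ± 0.12, -0.57 ± 0.12 and -0.84 ± 0.12. With its probe sets averaged, manf was called in embryos at 36 hpf alone (adjusted p = 0.297, 0.342 and 0.0785 in the other 3). The transcription factor gene xbp1 was lower in yng retinas at 52 hpf (-0.62 ± 0.13, adjusted p = 0.00174), together with hyou1, an HSP110 of this compartment (-0.51 ± 0.12). The lman1 call was lost in retinas at 52 hpf without WT replicate 1 (adjusted p = 0.0587) and in embryos at 52 hpf without WT replicate 1 or yng replicate 3 (up to 0.0792).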

How the data were processed

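The values are intensities per probe set as deposited by the authors, on a linear scale. Their summarisation and scaling were not given in the sources used here. Array run records are deposited with the arrays by the authors. Names came from the platform annotation: of 15502 probe sets (115 controls left out of 15617), 10795 had 1 gene symbol, 135 several and 4572 none.

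Arrays were quantile normalized, taken as log2(intensity + 16) and fitted with limma 3.58.1 in R 4.3.3, with 1 mean per group, 13 contrasts, 16 residual degrees of freedom and Benjamini-Hochberg adjustment over 15502 probe sets. In this fit, tested on simulated data for the yng and WT retinas at 52 hpf over 15502 probe sets, 22.4%, 85.1% and 98.5% of simulated log2 changes of 0.5, 1 and 2 were recovered. A total of 8 unchanged probe sets were called. The simulation changed 67, 67 and 66 probe sets by 0.5, 1 and 2, whereas in the data 974 genes were called higher and 847 lower. The adjusted p-values depend on how many probe sets change, so these rates need not hold in the data. The simulated noise was independent between arrays, without the shared deviation of same-numbered arrays in the data, so the recovery in the data may differ. The precision is limited by 3 arrays per group. Each array is a separate pool, labelled as a biological replicate.

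Replicate numbers mark a shared hybridization day. Same-numbered arrays deviated together (median correlation 0.331, and above 0.1 for every pair in 9 of 10 contrasts, with the lowest at 0.0743), so fits with the number as a block are given beside many results. The median for other pairs was -0.169. Deviations were taken from each group's own mean, so this value largely follows from the first and is no separate comparison. The block is the number and not the day itself. Not every member whose call changed with the block is named.

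Named members are, in each comparison, up to 6 called members each way with the largest differences and no overlap of arrays, plus a fixed set of chaperones. A lack of overlap was thus part of the choice and is no separate support for a call. Members and lists were chosen with earlier results of these data known. Alternatives were other scalings, log offsets, filters, variance trend, averaged probe sets, fewer arrays in the fit and each array left out. A planned search of promoters was not run.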

Additional observations from a re-analysis of the deposited data

Results flagged for a closer look

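The effect of genotype differed between ages or tissues for 6 members, by the test of that difference in limma. For genotype by age in retinas 3 members were called, against 1.39% of all genes higher and 2.68% lower. Genotype by age was not tested in embryos. For genotype by tissue 2 were called at 52 hpf, against 2.9% and 4.12%, and 3 at 36 hpf, against 0.887% and 1.74%. Between 52 and 36 hpf in retinas the yng minus WT difference changed by 1.51 ± 0.31 (SE) for hsp70.3 (adjusted p = 0.0048), by 0.92 ± 0.20 for hsp90aa1.2 (adjusted p = 0.00793) and by 0.63 ± 0.16 for dnaja3b (adjusted p = 0.024). Between retinas and embryos the rcn3 difference was 2.55 ± 0.38 larger at 52 hpf (adjusted p = 0.000152), and that at 36 hpf was 2.01 ± 0.38 larger (adjusted p = 0.00361). For hspa4l it differed by -1.74 ± 0.32 at 36 hpf (adjusted p = 0.00301). For hspb6 the 52 hpf value was 0.83 ± 0.22 (adjusted p = 0.025) and the 36 hpf value 0.89 ± 0.22 (adjusted p = 0.0352), between dim signals. Each group had its own pairing of wash station and module, so station, module and group cannot be told apart in these tests.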

How the results depend on the processing

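Of 215 member calls, all 215 held with the replicate block, 213 with a variance trend, 212 with an offset of 64, 206 with probe sets averaged, 202 with median scaling, 201 with an offset of 1, 159 on the intensities as deposited and 155 when only the groups compared entered the fit. With the replicate block the number of members called was 23 in place of 14 (genotype, retinas at 52 hpf), 24 of 13 (retinas at 36 hpf), 13 of 5 (embryos at 52 hpf), 21 of 10 (embryos at 36 hpf), 15 of 8 (age, WT embryos), 19 of 10 (age, yng embryos), 9 of 3 (genotype by age), and 4 of 2 and 5 of 3 (genotype by tissue at 52 and 36 hpf). With only the groups compared the genotype counts were 8, 3, 3 and 4 in the same order, and 3 for age in yng embryos. In embryos at 52 hpf 3 members were called as deposited, with median scaling and with an offset of 1. For genotype by age 6 were called with an offset of 64, 5 with dim probe sets left out and 5 with a variance trend, and for genotype by tissue at 52 hpf 1 with dim probe sets left out. The cause of these moves was not tested, and the share of all genes called with the block is not given.

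Retina minus embryo turned its sign as deposited for bag6 (-0.07), dnajb12a (-0.11), dnajc11a (-0.03) and pdia5 (-0.06) at 52 hpf and for dnajb1a (-0.02), pdia5 (-0.18) and rcn1 (-0.07) at 36 hpf, and with median scaling for calr3a at 52 hpf (0.01). With 1 array left out, 9 to 12 members were called for genotype in retinas at 52 hpf, 8 to 13 at 36 hpf, 1 to 3 in embryos at 52 hpf and 5 to 9 at 36 hpf. The ranges were 26 to 31 (WT retinas), 19 to 23 (yng retinas), 5 to 7 (WT embryos) and 5 to 8 (yng embryos) for age, 40 to 43 and 45 to 51 for tissue at 52 and 36 hpf, 2 to 7 for genotype by age, and 1 to 2 and 2 to 4 for genotype by tissue.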
